A study of Arabidopsis thaliana with 12 samples.

Results

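Superoxide dismutases (SOD) turn superoxide into oxygen and hydrogen peroxide, and each enzyme is built around a metal. *Arabidopsis* has 8 SOD genes, and together with *CCS1*, the copper chaperone that loads copper into the copper/zinc enzymes, they make up the 9 genes described here of 37336 in the deposited table. They were taken by gene ID and not by a threshold on their values, with earlier results of these data known. The manganese enzyme of mitochondria is encoded by *MSD1* (AT3G10920), and *MSD2* (AT3G56350) encodes a secreted manganese relative. *FSD1* (AT4G25100), *FSD2* (AT5G51100) and *FSD3* (AT5G23310) encode iron enzymes, of which FSD2 and FSD3 sit at the plastid nucleoid. *CSD1* (AT1G08830), *CSD2* (AT2G28190) and *CSD3* (AT5G18100) encode the copper/zinc enzymes of the cytosol, the chloroplast and the peroxisome, and *CCS1* is AT1G12520.

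In leaves the iron and copper/zinc enzymes of the family are known to trade places with copper supply. When copper is scarce, the transcription factor SPL7 switches on *FSD1* and the microRNA miR398, and miR398 cuts the transcripts of *CSD1*, *CSD2* and *CCS1*. When copper is plentiful, miR398 falls and the copper/zinc enzymes take over. FSD2 and FSD3 are known for their part in chloroplast development, where they belong to the proteins associated with the plastid RNA polymerase.

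RNA-seq was made from mature leaves of Col-0 and *rtnlb16-1* at an age of 4 weeks, with 3 libraries in each of 4 groups and 12 in all. Plants grew either in long days (LD, 16 h of light and 8 h of dark at about 80 µmol m-2 s-1) or in continuous low light (CLL, about 50 µmol m-2 s-1), so the regimes differ in both day length and intensity. The sample labels and the study's methods give LD as light for the longer part of the day, the series description has dark and light the other way round, and the methods give another intensity for CLL than the labels used here. The line *rtnlb16-1* is a single T-DNA allele, Salk_122275, in which the insertion at *RTNLB16* (AT3G10915), next to *MSD1*, came with a small deletion that took part of the *RTNLB16* promoter and 5′ UTR and reached into the start of the reading frame of 1 *RTNLB16* isoform, and each library is a pool of leaves from at least 3 plants. Col-0 LD are libraries 47 to 49, *rtnlb16-1* LD 50 to 52, Col-0 CLL 65 to 67 and *rtnlb16-1* CLL 68 to 70. The numbers of each group follow one another, by regime and by genotype, and whether the samples were handled in that order is not given in the sources used here.

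The insertion site is the reason that *MSD1* is of interest in this line. *RTNLB16*, on the minus strand, has its 5′ end at position 3417809 of chromosome 3 of TAIR10.1, and *MSD1* starts at 3417940 on the plus strand. The 130 reference bases between them, which both genes have as their 5′ flank, are shown on the plus strand at chr3:3417810-3417939, all in lower case since no motif is marked. They show the unchanged locus and not the mutant allele, whose deletion reaches into *RTNLB16*.

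RTNLB16 to MSD1: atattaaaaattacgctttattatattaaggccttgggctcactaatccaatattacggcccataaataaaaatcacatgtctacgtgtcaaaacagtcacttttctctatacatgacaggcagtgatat

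miR398 pairs with sites in the transcripts it cuts. The miR398 sequences of RefSeq (TAIR10.1) are given with the seed, bases 2 to 8, in capitals. The 3p arms of the 3 genes have 2 different sequences with 1 seed, and miR398c-3p has the sequence of miR398b-3p.

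miR398a-3p: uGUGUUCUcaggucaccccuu

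miR398b-3p: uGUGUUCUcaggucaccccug

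The best pairing with these microRNAs was searched in the transcripts of 27438 genes, counting 1 for a position with no pair, 0.5 for a G:U pair and 1 for 1 extra base in the transcript. Sites are given 5′ to 3′ in the transcript, with the letters that pair by Watson-Crick rules in capitals. They are shown because these 4 genes are the known miR398 targets, the fourth being *COX5b-1* (AT3G15640), a subunit of mitochondrial cytochrome c oxidase that the annotation lists as a rubredoxin-like protein.

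CSD1 with miR398a-3p: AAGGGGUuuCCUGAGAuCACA

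CSD2 with miR398b-3p: ugcGGGUGACCUGgGaAACAuA

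CCS1 with miR398a-3p: AuuGGGaGACCUGgGAACACu

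COX5b-1 with miR398a-3p: AAGGuGUGACCUGAGAAuCACA

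The *CSD1* site lies in the 5′ UTR across an intron and scored 3.0, a score that 0.0109% of the genes reached. The *CSD2* site lies in the coding sequence and scored 4.0, reached by 0.0692%. The *CCS1* site, also coding, scored 4.5, reached by 0.343%, and the *COX5b-1* site in the 5′ UTR scored 2.0, reached by 0.00729%. The lowest scores of the other members were 5.5 for *FSD1*, reached by 3.68% of genes, 6.0 for *MSD2*, reached by 7.96%, and 7.0 for *MSD1*, *CSD3*, *FSD2* and *FSD3*. By this search 3 members have a site within the lowest 0.343% of genes and 6 do not.

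SPL7 binds the letters GTAC, which are the same on both strands. Among windows from 250 bases before to 50 after the gene start, 39.0% of 27443 genes hold GTAC. *CSD1* holds 2 matches, a number that 9.76% of genes reach, and *CSD3*, *FSD1* and *CCS1* hold 1 each. The windows of *MSD1*, *MSD2*, *CSD2*, *FSD2* and *FSD3* do not hold these letters. The 250 bases before *FSD1*, chr4:12887012-12887261 on the minus strand of TAIR10.1, are shown with the match in capitals, since *FSD1* is the most abundant member. A match at this frequency is a description and not a binding site.

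FSD1 upstream: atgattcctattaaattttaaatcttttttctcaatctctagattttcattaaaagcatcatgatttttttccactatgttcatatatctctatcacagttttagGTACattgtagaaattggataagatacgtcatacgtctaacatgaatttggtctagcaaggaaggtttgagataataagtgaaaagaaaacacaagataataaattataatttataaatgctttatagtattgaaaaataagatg

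Values are normalized counts, that is, reads per gene that the authors scaled with 1 size factor per library. The libraries hold 25954730 to 44747661 assigned reads. Of the 9 members, 8 had reads in all 12 libraries, from 96 to 50684 reads in a library. Differences were tested with limma on log2(normalized count + 1) in 1 fit over the 4 groups and all 30388 genes with reads, and a gene was called at a Benjamini-Hochberg adjusted p under 0.01. In whole leaves, fewer cells of a type and less RNA per cell cannot be told apart. Libraries 68 and 69 of *rtnlb16-1* CLL are nearly alike, with a chi-square per gene of 1.81 against 26.2 to 153 in the other pairs within a group.

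Markers of other tissues differed between the groups. The summed normalized count of 5 shoot meristem markers ran from 1.43 to 14.1 in Col-0 LD, where *STM* was at 0, from 385 to 826 in *rtnlb16-1* LD, from 19.2 to 387 in Col-0 CLL and from 365 to 392 in *rtnlb16-1* CLL. The sum of 5 flower markers ran from 75.6 to 94.6 in Col-0 LD, where *AP1* was at 0, from 257 to 608 in *rtnlb16-1* LD, from 25.6 to 48.0 in Col-0 CLL and from 188 to 397 in *rtnlb16-1* CLL. One of them, *AG*, held most of the Col-0 LD sum at 63.3 to 87.8 and was at 24.5 to 68.6 in *rtnlb16-1* LD. Library 66 had the lowest meristem sum of Col-0 CLL. The sum of 5 leaf markers was 1845060 to 3176660 in Col-0 LD, 997735 to 1577340 in *rtnlb16-1* LD, 972904 to 1180190 in Col-0 CLL and 613686 to 786106 in *rtnlb16-1* CLL, so it was lower in *rtnlb16-1* in both regimes with no overlap, although 0 of the 5 were called between genotypes. The part of these differences in the results was not tested.

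The SOD transcript pool of these leaves was mostly *FSD1*. Per kilobase of exon, *FSD1* made up 50.9% to 76.0% of the summed normalized counts of the 9 genes, and *MSD1* made up 15.7% to 29.9%. The 3 *CSD* genes together held 6.10% to 19.5%, and *FSD2* with *FSD3* held 1.40% to 7.87%. Mean normalized counts per kilobase in Col-0 LD were 18040 ± 2374 (SD, n = 3) for *FSD1* and 5665 ± 1374 for *MSD1*, followed by 1518 ± 789 for *CSD2*, 1157 ± 200.2 for *CSD3* and 982 ± 413 for *CSD1*. *FSD3* at 448 ± 70.5, *CCS1* at 437 ± 105 and *FSD2* at 183 ± 63.5 were lowest. In this order the SDs of *CSD2*, *CSD3* and *CSD1* overlap, as do those of *FSD3* and *CCS1*.

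**Figure D1:**
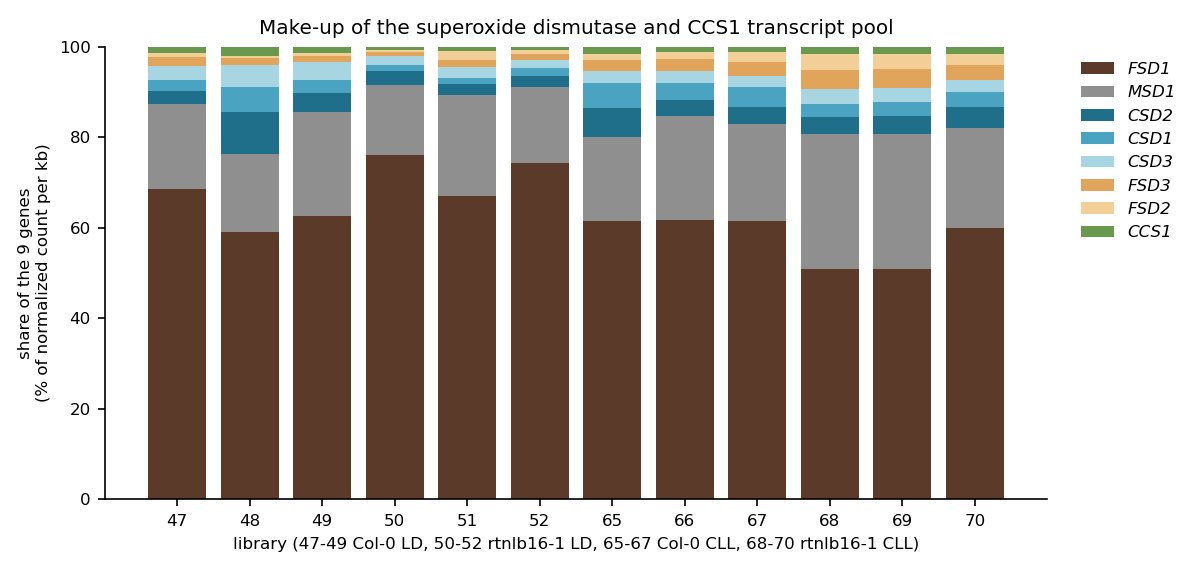
Share of each gene in the summed normalized count per kilobase of the 9 genes, in percent, for each of the 12 libraries (*MSD2* is too low to be seen). *FSD1* holds the most in every library, from 50.9% to 76.0%, and the *CSD* genes hold 6.10% to 6.26% in the 3 *rtnlb16-1* LD libraries.

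The share of the copper/zinc genes did not overlap between the genotypes under LD, while that of the iron genes did in both regimes. The *CSD* genes held 6.10% to 6.26% of the pool in the 3 *rtnlb16-1* LD libraries and 8.60% to 19.5% in Col-0 LD. Under CLL the same share was 9.88% to 10.5% in *rtnlb16-1* and 9.89% to 14.6% in Col-0, so those groups overlap. The 3 iron genes together held 70.6% to 77.3% in *rtnlb16-1* LD, 60.9% to 71.2% in Col-0 LD, 58.5% to 65.8% in *rtnlb16-1* CLL and 65.4% to 66.9% in Col-0 CLL. The ratio of the normalized count of *FSD1* to that of *CSD1* plus *CSD2*, which no scaling between libraries can move, was 26.9 to 28.7 in *rtnlb16-1* LD. It was 6.30 to 20.6 in Col-0 LD, 8.14 to 13.7 in Col-0 CLL and 11.7 to 12.5 in *rtnlb16-1* CLL. All 3 *rtnlb16-1* LD libraries therefore lie above the other 9 in this ratio, although within that group the highest library held at least 2.29 times the lowest for each of the 3 genes. Shares and ratios were looked at after their values were seen and were not tested.

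**Figure D2:**
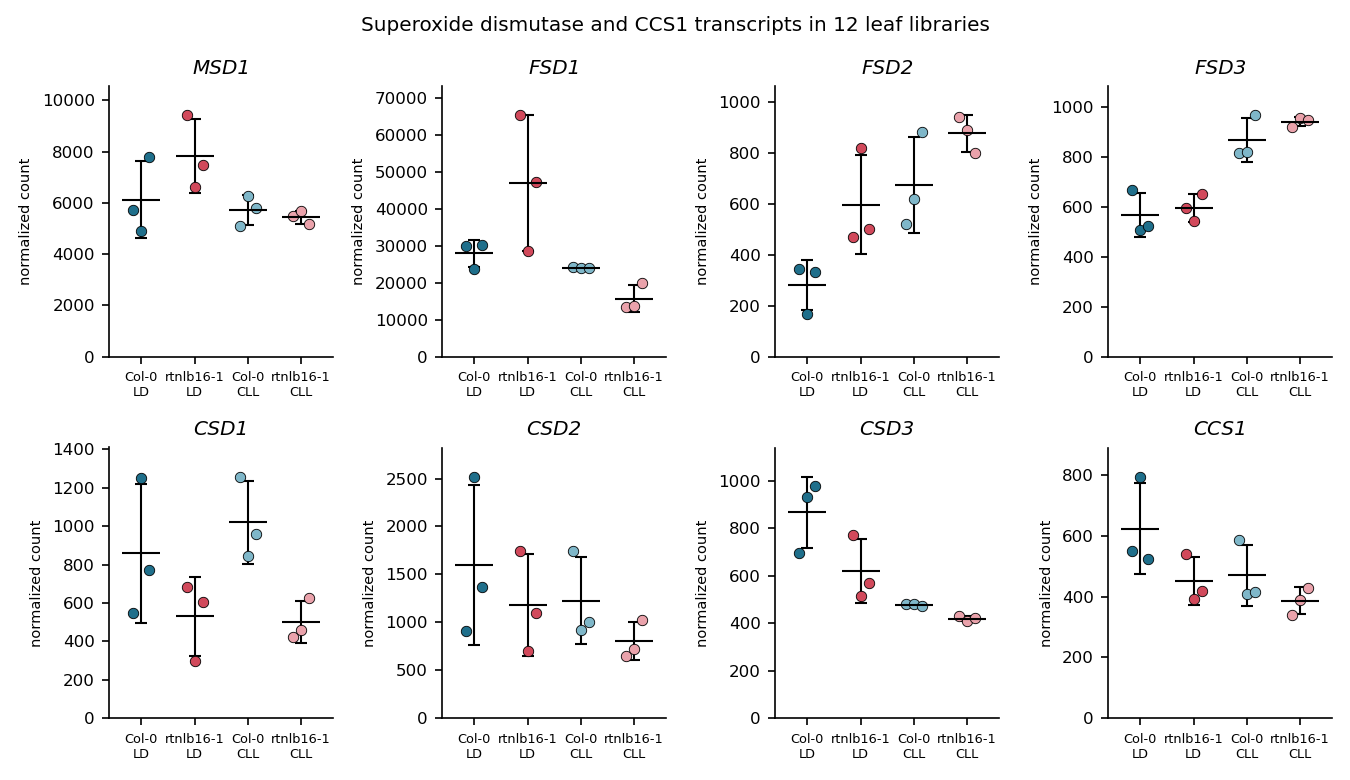
Normalized counts of the 8 members with reads in all libraries, 1 panel per gene with an axis from 0. Points are libraries, horizontal bars are group means and error bars the SD of 3 libraries. *FSD1* spreads from 28579.5 to 65397 in *rtnlb16-1* LD, and *FSD3* is lower in every LD library than in any CLL library.

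The first comparison asked whether the insertion next to *MSD1* goes with another level of *MSD1* or of its relatives. The manganese gene *MSD1* was at normalized counts of 9423, 6609 and 7463 in the *rtnlb16-1* LD libraries and 5726, 4885 and 7776 in Col-0 LD. Under CLL it was at 5491, 5664 and 5157 in *rtnlb16-1* and 5083, 6258 and 5811 in Col-0. The genotypes overlap in both regimes, and the 95% interval of the fold was 0.949 to 1.75 under LD and 0.702 to 1.30 under CLL. *MSD2* had 2 reads in each of *rtnlb16-1* LD libraries 50 and 52, 5 reads in *rtnlb16-1* CLL library 70 and 0 in the other 9, where 0 reads allow a normalized count of up to 1.73 to 5.28. All 9 reads came from *rtnlb16-1* libraries, but no fold is given at this depth.

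Of the genes on the other side of the insertion, both nearest ones were called. *RTNLB16*, which encodes a reticulon protein of the endoplasmic reticulum, had the higher level in *rtnlb16-1* in both regimes (adjusted p = 3.09e-07 under LD and 0.00346 under CLL from limma), the CLL call being lost without any 1 of libraries 66 to 69. The next gene beyond it, AT3G10910, encodes a RING/U-box protein on the minus strand, with its 5′ end at 3414019. It was at 529, 539 and 551 in *rtnlb16-1* LD and 58.6, 65.1 and 98.7 in Col-0 LD. Under CLL it was at 164, 178 and 307 in *rtnlb16-1* and 22.5, 27.7 and 32.0 in Col-0. Every *rtnlb16-1* library lies above every Col-0 library, by 2.88 under LD (log2 fold change, standard error 0.30, adjusted p = 1.18e-05 from limma) and by 2.89 under CLL (standard error 0.30, adjusted p = 7.1e-05). Neither call was lost with any library left out (adjusted p up to 0.00107). On the *MSD1* side, AT3G10930, *LSF2* (a phosphoglucan phosphatase) and *AZG1* (a purine transporter) were not called in either regime (adjusted p from 0.0309 to 0.954). *LSF2* was lower in *rtnlb16-1* LD with no overlap, by -0.93 on the log2 scale, beside 27.2% of all genes without overlap. AT3G10930 was lower in *rtnlb16-1* CLL with no overlap, by -0.74, beside 32.1% of all genes. The genotypes overlapped in the other comparisons of these genes. Of the remaining 3 genes within 10 kb of *MSD1*, AT3G10890 and AT3G10950 had almost no reads and AT3G10900 had 0 in all libraries.

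No member of the family passed the test between the genotypes. Under LD 0 of 9 members were called, beside 6.67% of all genes higher and 6.18% lower in *rtnlb16-1*, and under CLL 0 of 9, beside 0.846% higher and 0.731% lower. Of the 8 members with reads in all libraries, 3 under LD and 1 under CLL had an unadjusted p below 0.05. The share of all genes below that p is not given here, so these counts are not read as a result about the family. The median log2 fold change of the 8 members was -0.16 under LD and -0.23 under CLL, beside 0 and 0.03 over all genes tested. Groups did not overlap for 1 member under LD, beside 27.2% of all genes, and for 3 under CLL, beside 32.1%.

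Among the iron genes, *FSD2* came closest to a genotype difference under LD. It was at 468, 820.3 and 500.1 in *rtnlb16-1* LD and 345, 169 and 332 in Col-0 LD. All 3 *rtnlb16-1* libraries lie above all 3 Col-0 libraries, with a log2 fold change of 1.10 (standard error 0.29, adjusted p = 0.0145 from limma). The count tests on the recovered reads did call it (adjusted p = 0.000742 from edgeR and 0.00266 from DESeq2). Under CLL it was at 941, 888 and 799 in *rtnlb16-1* and 521, 619 and 883 in Col-0, with overlap and an adjusted p of 0.505 from limma. The difference between the regimes in the size of the genotype difference was 0.69 on the log2 scale (95% interval -0.20 to 1.58).

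*FSD1*, the plastid and cytosol iron enzyme that stands in for the copper/zinc enzymes at low copper, had the higher mean in *rtnlb16-1* under LD and the lower mean under CLL, and passed the test in neither. It was at 65397, 28579.5 and 47348 in *rtnlb16-1* LD and 29911, 23765 and 30368 in Col-0 LD, where the groups overlap through library 51. Under CLL it was at 13465, 13825 and 19944 in *rtnlb16-1*, below all of 24451, 24023 and 24126 in Col-0. On the log2 scale the genotypes differed by 0.68 under LD (adjusted p = 0.134) and by -0.64 under CLL (adjusted p = 0.284), each with a standard error of 0.30. The genotype by light interaction was a log2 value of 1.32 with a standard error of 0.43 and an adjusted p of 0.122 from limma, and edgeR and DESeq2 called it (adjusted p = 0.00863 and 0.00819). With libraries 68 and 69 merged into 1 sample it was 1.23 (adjusted p = 0.298 from limma).

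*FSD3*, the partner of FSD2, overlapped between the genotypes in both regimes. It was at 595, 542 and 651 in *rtnlb16-1* LD and 669, 508 and 523 in Col-0 LD, and at 921, 955 and 947 against 814, 821 and 967 under CLL. The 95% interval of the fold between genotypes was 0.827 to 1.35 under LD and 0.851 to 1.39 under CLL.

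The copper/zinc genes and their chaperone had lower means in *rtnlb16-1* in both regimes, and none was called with limma. *CSD1* was at 424, 457 and 627 in *rtnlb16-1* CLL, below all of 1258, 842 and 957 in Col-0 CLL. Its log2 fold change under CLL was -1.02 (standard error 0.33, limma adjusted p = 0.116). In the count tests the adjusted p was 0.00526 from edgeR and 0.0326 from DESeq2. With libraries 68 and 69 merged into 1 sample the log2 fold change was -0.93 (adjusted p = 0.327 from limma). Under LD *CSD1* was at 685, 297 and 607 in *rtnlb16-1* and 546, 1252 and 773 in Col-0, with overlap and an adjusted p of 0.163. *CSD2* overlapped in both regimes, with 1743, 698 and 1102 in *rtnlb16-1* LD, 908, 2521 and 1366 in Col-0 LD, 652, 725 and 1027 in *rtnlb16-1* CLL and 1745, 918 and 1008 in Col-0 CLL. Its highest Col-0 LD library held 2.78 times the lowest, the widest spread of any of the 8 members within a group.

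The peroxisomal *CSD3* and the chaperone were not called either. *CSD3* was at 772, 515 and 570.3 in *rtnlb16-1* LD and 696, 931 and 976 in Col-0 LD (adjusted p = 0.0806). Under CLL it was at 431, 408 and 420.3 in *rtnlb16-1*, all below 480.2, 482 and 473 in Col-0, a difference of only -0.19 on the log2 scale (95% interval -0.59 to 0.22). *CCS1* was at 541, 394 and 418 in *rtnlb16-1* LD and 549, 795 and 524 in Col-0 LD, and at 339.9, 390.3 and 428 against 586, 407 and 416 under CLL, with overlap in both regimes. The 95% interval of its fold was 0.527 to 1.01 under LD and 0.599 to 1.15 under CLL. *CSD1* overlaps 1 annotated gene and *CSD3* overlaps 2, all on the opposite strand, and how strand was handled in the counting is not given in the sources used here.

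**Figure D3:**
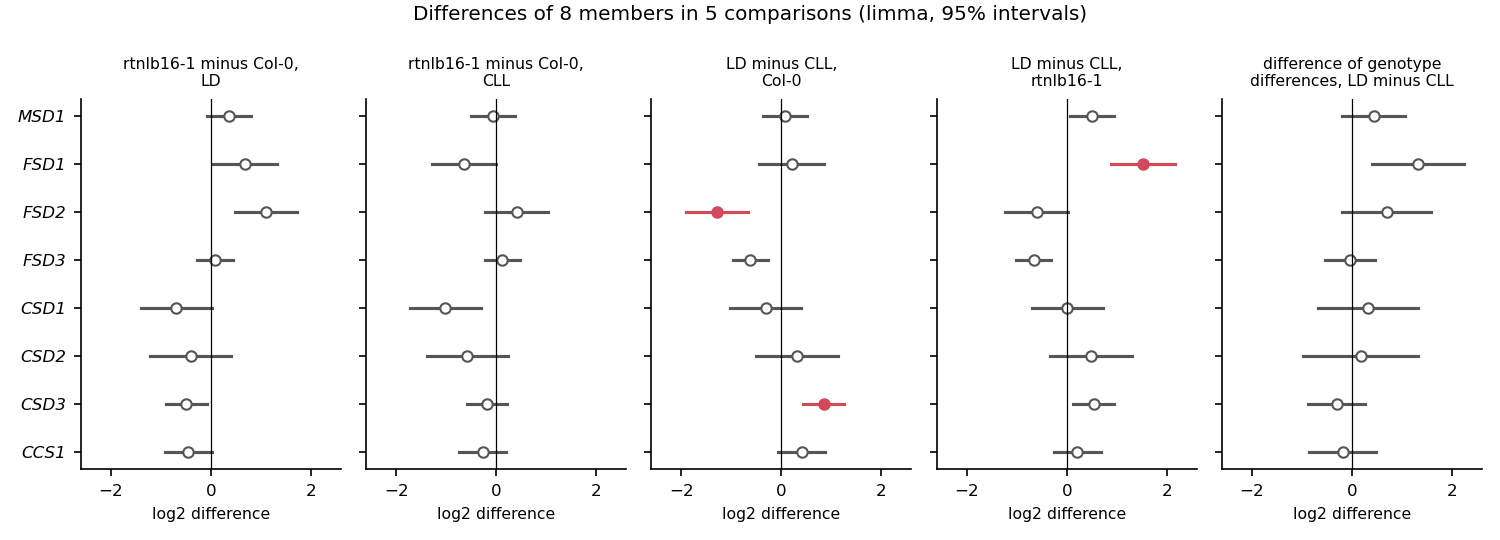
Log2 difference (points) and 95% interval (lines) of 8 members in 5 comparisons from limma, with filled red points for an adjusted p under 0.01. In Col-0 *FSD2* is lower and *CSD3* higher under LD than under CLL, and in *rtnlb16-1* *FSD1* is higher under LD, while no point is filled in the genotype and interaction panels.

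The second comparison set LD against CLL within each genotype. In Col-0, 1 of 9 members was called higher under LD (beside 2.5% of all genes) and 1 lower (beside 4.01%). In *rtnlb16-1*, 1 of 9 was called higher (beside 2.37%) and 0 lower (beside 3.48%). Groups did not overlap for 3 members in Col-0 (beside 25% of all genes) and for 4 in *rtnlb16-1* (beside 33.7%). The median log2 fold change of the 8 members was 0.14 in Col-0 and 0.35 in *rtnlb16-1*, beside -0.05 and -0.09 over all genes.

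*CSD3*, the peroxisomal enzyme, was higher under LD in Col-0. The 3 Col-0 CLL libraries lay within 473 to 482 and the 3 Col-0 LD libraries within 696 to 976, a log2 fold change of 0.84 (standard error 0.19, adjusted p = 0.00873 from limma). In *rtnlb16-1* all LD libraries were also above all CLL libraries, with a log2 fold change of 0.54 (standard error 0.19, adjusted p = 0.0727), and the difference between the genotypes was not called (adjusted p = 0.648 for the interaction).

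*FSD2* went the other way in Col-0. Its Col-0 LD libraries held 169 to 345 and its Col-0 CLL libraries 521 to 883, a log2 fold change of -1.29 (standard error 0.29, adjusted p = 0.00931 from limma). In *rtnlb16-1* the regimes overlapped through library 51, with a log2 fold change of -0.60 (adjusted p = 0.19). The meristem sums also differed between these groups, and their part in the *FSD2* and *CSD3* results was not tested. In library 66, with the lowest meristem sum of Col-0 CLL, *FSD2* was at 619 and *CSD3* at 482. Both calls in Col-0 were lost with any 1 of libraries 48, 49, 52 and 65 to 70 left out (adjusted p up to 0.0327 for *CSD3* and 0.0512 for *FSD2*) and with libraries 68 and 69 merged (0.0175 and 0.0227). The directions held in all of these fits.

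*FSD1* was higher under LD in *rtnlb16-1*, from 13465 to 19944 under CLL to 28579.5 to 65397 under LD, a log2 fold change of 1.52 (standard error 0.30, adjusted p = 0.00428 from limma). In Col-0 it differed by 0.20 on the log2 scale (95% interval -0.44 to 0.85). The *rtnlb16-1* call was lost without library 50, 52, 68 or 69 (adjusted p up to 0.031) and with 68 and 69 merged (0.0339), while edgeR and DESeq2 gave 2.94e-06 and 2.29e-07. *CAB2*, a light-harvesting gene among the leaf markers, was also higher under LD in *rtnlb16-1*, by 2.79 on the log2 scale (adjusted p = 0.00167, lost without library 68 or 69). In Col-0 *CAB2* was higher under LD too, by 1.82 with no overlap, and was not called (limma adjusted p = 0.0216). Its genotype by light interaction was 0.97 (limma adjusted p = 0.535). The part of *CAB2* in the *FSD1* result was not tested.

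*FSD3* showed the most even light difference of the family. Its 6 LD libraries held 508 to 669 and its 6 CLL libraries 814 to 967, with log2 fold changes of -0.62 in Col-0 (standard error 0.17, adjusted p = 0.0224) and -0.66 in *rtnlb16-1* (standard error 0.17, adjusted p = 0.0166). The groups did not overlap in either genotype, limma called neither at 0.01, and DESeq2 called both (adjusted p = 0.00578 and 0.00241). The genotype by light interaction was -0.04 (95% interval -0.54 to 0.46). *MSD1* was higher under LD in *rtnlb16-1* with no overlap, a log2 fold change of 0.51 (adjusted p = 0.114, standard error 0.21), and differed by 0.08 in Col-0 (95% interval -0.36 to 0.52). For *CSD1*, *CSD2* and *CCS1* the regimes overlapped in both genotypes, with adjusted p from 0.279 to 1.

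The third comparison asked whether the genotype difference itself changed with the light regime. Of the 9 members 0 were called, beside 0.395% of all genes higher and 0.533% lower, and 1, *FSD1*, was under an unadjusted p of 0.05. The share of all genes under that unadjusted p is not given here. An exact two-sided permutation test of a single gene gives 0.1 at best with 3 libraries against 3. Groups without overlap always give that value, so the test adds nothing to the overlaps given above.

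The count tests on recovered reads called more members and more genes in all. With edgeR 1 member was called between genotypes under LD (*FSD2*, beside 15.9% of all genes in either direction) and 1 under CLL (*CSD1*, beside 4.41%). With DESeq2 it was 1 under LD (*FSD2*, beside 16.8%) and 0 under CLL (beside 4.19%). Between regimes edgeR called 2 in Col-0 (*CSD3* and *FSD2*, beside 10.9%) and 1 in *rtnlb16-1* (*FSD1*, beside 11%), and DESeq2 added *FSD3* to both, making 3 and 2 (beside 11.2% in each genotype). For the interaction each called *FSD1* alone, beside 3.97% with edgeR and 3.59% with DESeq2.

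The 3 genes with a miR398 site were highest in the same library of each group. *CSD1*, *CSD2* and *CCS1* were each highest in library 48 of Col-0 LD, 50 of *rtnlb16-1* LD, 65 of Col-0 CLL and 70 of *rtnlb16-1* CLL. *COX5b-1*, the other known target, was highest in the same 4 libraries, at 3486, 2846, 2675 and 1673. The 4 libraries were set as those where *CSD1* is highest, so *CSD1* has the pattern by definition. Over the 16663 genes with a mean normalized count of at least 50, 6.43% are highest in these 4 libraries. Of the other 5 members measured, *FSD1* was highest in 3 of the 4, *MSD1* and *CSD3* in 1, and *FSD2* and *FSD3* in 0. *FSD2* was lowest in all 4, as 5.32% of genes were. The pattern was noticed in the values and is given as a description. It also holds for 2 of 13 hydrogen peroxide removing enzymes, 2 of 7 other copper proteins and 1 of 10 metal delivery genes with a mean of at least 50. *COX5b-1*, named above, is among the 2 of 7. The pattern holds for 0 of 17 copper regulation genes, 0 of 10 genes of the plastid polymerase list and 0 of 5 leaf markers.

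**Figure D4:**
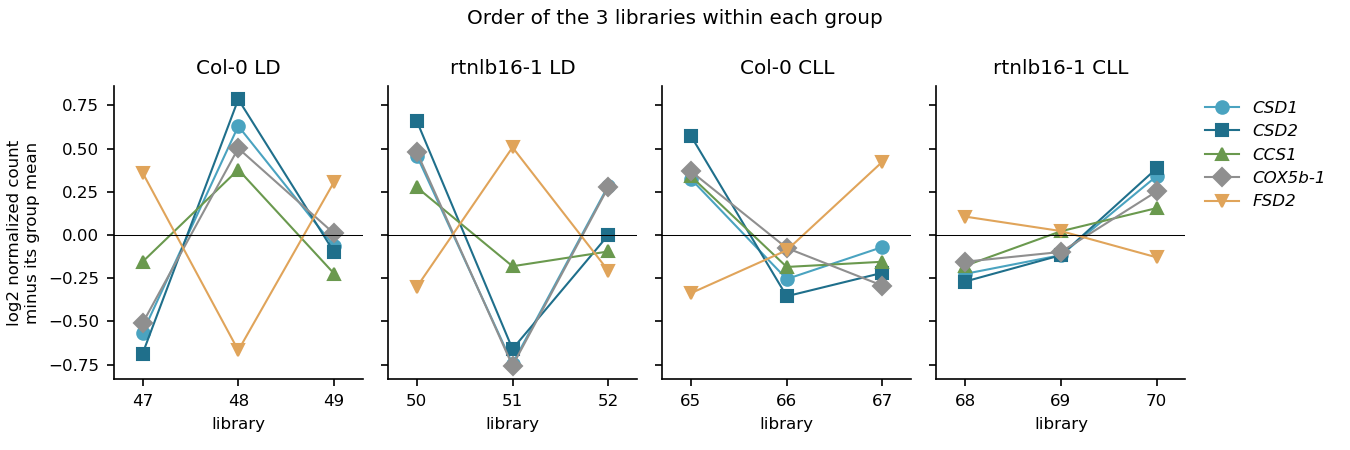
Log2 normalized count of 5 genes minus the mean of its group, for the 3 libraries of each group (lines only join the points of a gene). *CSD1*, *CSD2*, *CCS1* and *COX5b-1* are highest in libraries 48, 50, 65 and 70, where *FSD2* is lowest.

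Likeness over the 12 libraries, as Pearson's r of log2 values among 16663 genes, placed a miR398 target beside *CSD2*. None of the known targets was among the 3 genes closest to *CSD1* or *CCS1*. Of all genes *COX5b-1* was second closest to *CSD2* with r = 0.951, between AT2G08765 at 0.958 and AT4G06701 at 0.949, and *CCS1* ranked 28 with r = 0.899. *CSD1* was closest to AT1G19130 (0.958), the sugar transporter gene *STP1* (0.948) and AT3G03020 (0.945), and *CSD2* ranked 170 for it with r = 0.805. For *CSD1*, *COX5b-1* ranked 216 with r = 0.791 and *CCS1* ranked 780 with r = 0.677. *CCS1* was closest to AT4G39366 (0.946), the COP9 signalosome gene *CSN5A* (0.943) and AT4G24740 (0.940), and had r = -0.905 with *FSD2*. For *CCS1*, *COX5b-1* ranked 280 with r = 0.819. The points share libraries, scaling and the differences between pools, so these values describe 12 libraries and no more.

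The other members were close to other genes. *CSD3* followed AT3G20680 (0.987), AT4G17810 (0.981) and AT1G74730 (0.980). *FSD2* followed *RPA70B*, a subunit of the single-stranded DNA binding protein RPA (0.978), a peroxidase gene AT2G22420 (0.973) and AT2G33400 (0.969). *FSD3* followed AT1G17665 (0.957), the copper amine oxidase gene AT1G31690 (0.944) and *RVE2* of the clock-related MYB family (0.944), and had r = 0.735 with *FSD2*. *FSD1* followed AT5G08139 (0.969), the polyamine oxidase gene *PAO2* (0.959) and AT5G23040 (0.953). *MSD1* followed AT4G13720 (0.944), AT1G42960 (0.939) and AT5G47435 (0.936).

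Genes that supply metal to the SOD proteins were compared in the same fits. *SPL7*, the copper regulator itself, was at 720.0, 879 and 861 in *rtnlb16-1* LD and 458, 485.5 and 368 in Col-0 LD. Every *rtnlb16-1* LD library lies above every Col-0 LD library, the log2 fold change was 0.91 (standard error 0.17, limma adjusted p = 0.00169), and no single library decided the call, which was lost in the fit of only these 2 groups (0.0255). Under CLL the difference was 0.40 (standard error 0.17, adjusted p = 0.246). The microRNA genes of the miR398 family and of the other copper microRNAs were not analysed here.

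Of 21 genes for copper regulation, uptake and delivery, 3 were higher and 4 lower in *rtnlb16-1* under LD (beside 6.67% and 6.18% of all genes) and 0 were called under CLL (beside 0.846% and 0.731%). *CCH*, a copper chaperone of the ATX1 kind, was at 7428 to 10314 in *rtnlb16-1* LD against 17599 to 39316 in Col-0 LD, a fall of 1.53 on the log2 scale (adjusted p = 0.0012). The metal reductase genes *FRO3* and *FRO4* fell by 2.31 and 2.21 (adjusted p = 0.000201 and 0.000501), *FRO3* from 2268 to 2980 in Col-0 LD to 448 to 637 in *rtnlb16-1* LD. *FRO5* was at 0 in all Col-0 LD libraries and at 3.87, 44.8 and 15.5 in *rtnlb16-1* LD. Besides these and *SPL7*, the called genes were the copper transporter gene *COPT2*, at a log2 fold change of -1.353, and *YSL2*, at 1.105. The called genes of the list lie on both sides of 0, and the median over the list was 0.11, or -0.06 with genes at 0 set to their bound, beside 0 for all genes.

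The list of 12 other copper proteins includes *COX5b-1*. Of these 12, 1 was higher and 2 lower under LD, and 1 of 12 is close to the 6.67% of all genes that were higher (6.18% were lower). The plastocyanin genes *PETE1* and *PETE2*, which carry electrons to photosystem I, fell by 1.54 and 1.75 (adjusted p = 0.000116 and 0.00476, the *PETE2* call being lost without any 1 of libraries 47, 49, 51 and 52). The laccase gene *LAC3* was at 0 in all Col-0 LD libraries and at 111, 63.3 and 133 in *rtnlb16-1* LD. The median was 0.08, or -0.01 with genes at 0 set to their bound.

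Of 10 genes for metal delivery to and activation of SOD, 1 was higher and 1 lower under LD, near the 6.67% and 6.18% of all genes, with a median of -0.10. *NRAMP1*, a manganese and iron importer, was at 1498, 1392 and 1119 in *rtnlb16-1* LD and 625, 515 and 533 in Col-0 LD, a rise of 1.25 (adjusted p = 0.000283). *NRAMP4*, which releases vacuolar manganese and iron, fell by 0.93 (adjusted p = 0.0071), and this did not pass without any 1 of libraries 47, 49, 51, 52, 65, 67, 68 and 69. The chaperonin gene *CPN20* and the mitochondrial carrier genes of the list were not called between genotypes.

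Hydrogen peroxide, the product of SOD, is removed by catalases, ascorbate peroxidases and peroxiredoxins. Of 14 such genes 2 were higher and 1 lower in *rtnlb16-1* under LD (beside 6.67% and 6.18% of all genes), with a median of -0.17. The catalase gene *CAT1* was at 1384 to 1700 in *rtnlb16-1* LD against 233 to 519 in Col-0 LD, a rise of 2.11 (adjusted p = 9.96e-05). The stromal *sAPX* rose by 1.56 (adjusted p = 0.0018, lost without library 49) and the thylakoid *tAPX* fell by 0.89 (adjusted p = 0.00297, lost without library 48 or 52). Of the 10 genes for proteins associated with the plastid RNA polymerase, the company of FSD2 and FSD3, 0 were called in any of the 5 comparisons. Over all genes 0.395% to 6.67% were called higher and 0.533% to 6.18% lower in these comparisons. The median of the 10 was -0.05 under LD and 0.24 under CLL, beside 0 and 0.03 over all genes. Under LD 4 of the 5 meristem markers and 4 of the 5 flower markers were called higher in the mutant as well, with the sums given above, the leaf marker sum was lower, and their part in these list results was not tested.

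**Figure D5:**
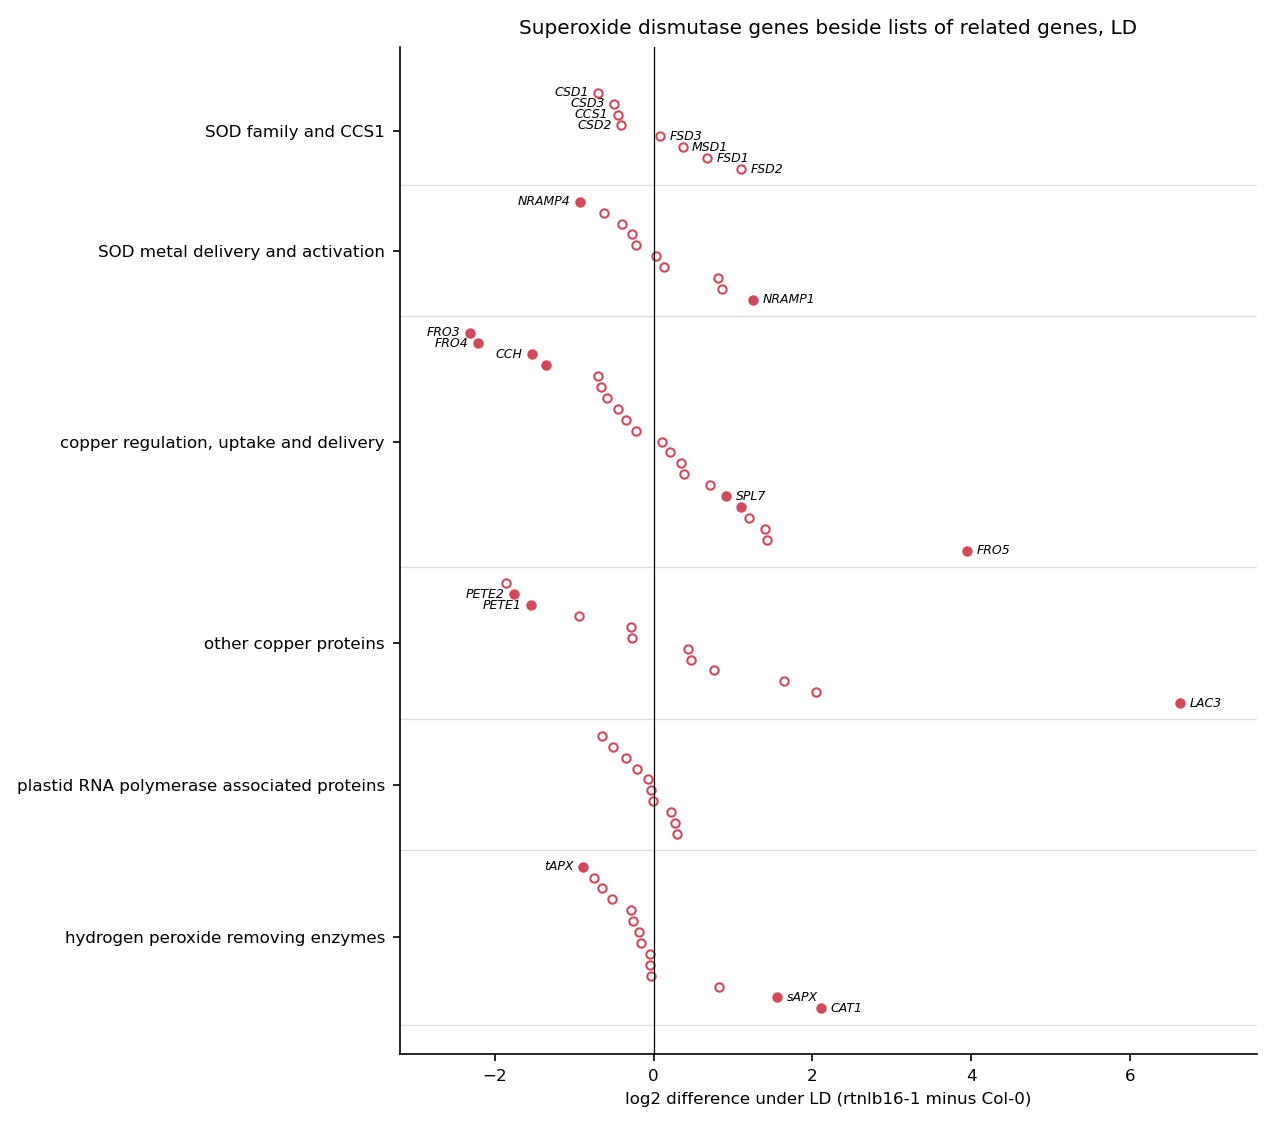
Log2 difference between *rtnlb16-1* and Col-0 under LD for each gene of 6 lists, sorted within its list, with filled points for an adjusted p under 0.01 from limma. None of the 8 SOD family genes plotted is filled, while the copper list has 7 filled points on both sides of 0; *FRO5* and *LAC3* were at 0 in all Col-0 LD libraries, so the size of their difference depends on the pseudocount.

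Between LD and CLL fewer of these genes were called than between genotypes under LD, as was so over all genes. Of the 21 copper regulation genes, 1 was higher under LD and 0 lower in Col-0, and 1 and 1 in *rtnlb16-1*. Of the 10 metal delivery genes it was 0 and 1 in Col-0 and 1 and 0 in *rtnlb16-1*. Over all genes 2.5% were higher and 4.01% lower in Col-0, and 2.37% and 3.48% in *rtnlb16-1*, beside 6.67% and 6.18% between genotypes under LD. In Col-0 *NRAMP1* fell by 1.01 under LD (adjusted p = 0.00266, lost without library 48 or 65) and *CCH* rose by 1.23 (adjusted p = 0.00911, lost without any 1 of 10 of the 12 libraries). In *rtnlb16-1* the copper importer gene *COPT1* rose by 1.75 under LD (adjusted p = 0.000648), *FRO3* fell by 1.87 (adjusted p = 0.00206, lost without library 50, 68 or 69) and AT1G07030, a mitochondrial carrier gene, rose by 1.15 (adjusted p = 0.00349, lost without library 50, 52, 68, 69 or 70). *COPT1* kept its call in every fit with a library left out, with normalized counts of 4567 to 8570 under LD and 1816 to 2145 under CLL. In Col-0 *COPT1* also rose under LD, by 1.06 with no overlap, and was not called (limma adjusted p = 0.0164). Its genotype by light interaction was 0.69 (limma adjusted p = 0.402).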

How the data were processed

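The authors aligned reads to TAIR10 with STAR, counted unambiguous reads per gene with HTSeq and deposited 1 table of signal values, that is, gene counts scaled by DESeq2 with 1 factor for each library. Dividing each library by its smallest value above 0, which was taken as 1 read, gave whole numbers for 100% of the values (relative tolerance 1e-06). The reads recovered in this way could enter the count tests. How strand was counted is not given in the sources used here.

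The log2 of the value plus 1 went into a limma 3.58.1 model (R 4.3.3) with 4 group means, a trended prior and no covariate. It covered the 30388 genes above 0 in at least 1 library, and p-values were adjusted by Benjamini-Hochberg. The alternatives tried were a pseudocount of 0.5 or 5; keeping only genes that reach 10 in 3 or more libraries; scaling by TMM or by the upper quartile; a model of just the pair of groups; edgeR 4.0.16 or DESeq2 1.42.0 on the reads; leaving out each library; merging libraries 68 and 69; and other call rules (adjusted p under 0.05, or an absolute log2 fold change above 1 with an adjusted or unadjusted p under 0.01). The fits were tested on simulated data.

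The members, the 11 gene lists and the tests were chosen with earlier results of these data known. Named were all members, *RTNLB16*, *SPL7*, genes within 10 kb of *MSD1*, up to 4 called genes per list and comparison with the largest change, and the 3 genes most like each member among those with a mean of at least 50. *COX5b-1* and library orders were taken up after their values were seen. *COPT2* and *YSL2* were added to complete the called genes of the copper list under LD. Coordinates, names and sequences are those of RefSeq TAIR10.1, where 37051 of the 37336 gene IDs were found. The 250 bases before and 50 after the start were taken as promoter. Floors for 0 are 3 reads a library and, like all read numbers, cover counting error only. Python 3.11.15, pandas 2.3.3, numpy 2.4.6 and matplotlib 3.10.9 were used.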

Additional observations from a re-analysis of the deposited data

How the results depend on the processing

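No paired analysis was made. The replicate numbers are the library numbers, which do not say whether samples of different groups were matched. Between genotypes under LD 0 members were called, and 1 (*FSD2*) was with edgeR, with DESeq2, at an adjusted p under 0.05, and at an unadjusted p under 0.01 with an absolute log2 fold change above 1. Under CLL 0 were called, and 1 (*CSD1*) was with edgeR and under the unadjusted rule. For light in Col-0 the count of 2 became 1 with a pseudocount of 5, with upper quartile scaling and under either rule with a minimum fold, and 0 with only the 2 groups fitted or with libraries 68 and 69 merged, and it was 3 (with *FSD3*) with DESeq2 and at an adjusted p under 0.05. For light in *rtnlb16-1* the count of 1 became 0 in those last 2 settings and 2 with DESeq2 and at an adjusted p under 0.05. For the interaction 0 became 1 (*FSD1*) with edgeR, DESeq2 and the unadjusted rule. With each library left out the counts ran from 0 to 2 for light in Col-0, from 0 to 1 for light in *rtnlb16-1* and stayed at 0 in the other 3 comparisons. The cause of these changes was not tested.

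Changes of sign were found only for differences that were not called. *CSD1* for light in *rtnlb16-1* was 0.01 on the log2 scale, -0.042 with TMM, -0.077 with libraries 68 and 69 merged, and from -0.22 to 0.38 with a library left out. With a library left out *MSD1* for light in Col-0 ran from -0.11 to 0.23, *CSD2* from -0.075 to 0.66 and *COX5b-1* from -0.0025 to 0.50. The interaction ran from -0.17 to 0.56 for *CSD2*, from -0.12 to 0.084 for *FSD3* and from -0.36 to 0.0031 for *CCS1*, and *COX5b-1* between genotypes under LD ran from -0.53 to 0.11. The fewest reads behind a member were 96 for *FSD2* in library 48, and *MSD2* was too low for any comparison.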
